A study of Mus musculus with 16 samples.

Results

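The polo-like kinases of the mouse, Plk1, Plk2, Plk3, Plk4 and Plk5, were followed in O4-sorted brain oligodendrocytes after perinatal exposure to bisphenol A (BPA). The 5 genes were taken by symbol from a table of 32207 genes. Plk5 was picked because of its pattern in these libraries, and the other 4 were taken as its family, so its levels and fold changes are given below as a description without a test. Only its correlations within groups carry a p-value, and their pairs were chosen after the data were seen. The gene was picked on these same libraries, so those p-values are given as a description. All 5 passed the filter on low counts, as did 16339 genes in total. The Ensembl identifiers in the table are ENSMUSG00000030867 for Plk1, ENSMUSG00000021701 for Plk2, ENSMUSG00000028680 for Plk3, ENSMUSG00000025758 for Plk4 and ENSMUSG00000035486 for Plk5.

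RNA was sequenced from 16 outbred OF-1 mice at postnatal day 16, with 4 libraries each from BPA males, control males, BPA females and control females. BPA, a plastics monomer with weak estrogenic activity, reached the pups through their mothers, who drank it in water from gestational day 7 and through lactation. The design text estimates the exposure at 40 µg/kg/day and gives the concentration in the drinking water as 250 µg/mL. That estimate was not checked here against the water concentration, so the dose is taken as uncertain and nothing below rests on it. Controls came from mothers without BPA, and the mice of the 4 groups carried no labelled transgene or deletion. Cells were sorted magnetically for O4, a sulfatide-related surface antigen that appears on late precursors and stays on myelinating oligodendrocytes. Litter and batch are not labelled, and littermates would share an exposed mother, so the p-values below reflect the spread among these libraries alone and may be too small for BPA.

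Polo-like kinases are serine/threonine kinases that find their targets through a polo-box domain, which docks on sites already phosphorylated by other kinases. Plk1 drives mitotic entry, spindle assembly and cytokinesis, and Plk4 starts centriole duplication. Plk2 and Plk3 are inducible genes that respond to growth factors, neuronal activity and stress, and Plk2 is best known in brain for phosphorylating synaptic proteins. Plk5 is the atypical member, known in mouse and human from brain and other differentiated tissue and lacking kinase activity. In the oligodendrocyte lineage, precursors divide, and their myelinating descendants have left the cell cycle.

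The promoters of 4 members are shown. For Plk1, Plk2 and Plk3 the letters bear on the genes compared, which were mitotic genes for Plk1 and immediate early genes for Plk2 and Plk3. Plk5 is shown as the member that was picked. All 5 members matched a RefSeq promoter by symbol. The windows run from 250 bases before to 50 bases after the annotated start, on the gene's own strand, in RefSeq's build GRCm38.p6, which is not the build of the counts. Plk5 lies at chr10:80356209-80356508 on the plus strand, and capitals mark GC boxes (GGGCGG) and a CCAAT box. Plk1 lies at chr7:122159185-122159484 on the plus strand, and capitals mark a CCAAT box and the letters TTTGAA of the cell cycle homology region, an element known from genes repressed outside of the dividing state. Plk2 lies at chr13:110394794-110395093 on the plus strand and Plk3 at chr4:117133914-117134213 on the minus strand. Capitals in both mark TGACG, the core of the cyclic AMP response element (TGACGTCA), which is known from activity-regulated genes.
Plk5: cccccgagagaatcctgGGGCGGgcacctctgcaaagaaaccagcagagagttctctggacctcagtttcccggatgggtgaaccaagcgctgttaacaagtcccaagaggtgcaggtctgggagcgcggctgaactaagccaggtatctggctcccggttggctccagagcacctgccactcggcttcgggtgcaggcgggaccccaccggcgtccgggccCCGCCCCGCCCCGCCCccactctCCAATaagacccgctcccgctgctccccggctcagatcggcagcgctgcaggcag
Plk1: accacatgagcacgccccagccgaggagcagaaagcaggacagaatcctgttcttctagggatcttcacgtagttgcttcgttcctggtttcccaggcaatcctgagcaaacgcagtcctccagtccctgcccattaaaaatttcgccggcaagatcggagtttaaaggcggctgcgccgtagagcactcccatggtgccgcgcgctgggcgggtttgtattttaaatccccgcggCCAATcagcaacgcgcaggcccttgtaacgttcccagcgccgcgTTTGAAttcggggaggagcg
Plk2: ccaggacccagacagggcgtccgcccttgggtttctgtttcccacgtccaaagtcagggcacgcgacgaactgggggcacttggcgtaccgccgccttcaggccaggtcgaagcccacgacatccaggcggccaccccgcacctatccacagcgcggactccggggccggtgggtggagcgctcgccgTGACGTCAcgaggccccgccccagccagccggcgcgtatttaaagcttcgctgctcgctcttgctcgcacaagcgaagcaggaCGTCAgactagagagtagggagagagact
Plk3: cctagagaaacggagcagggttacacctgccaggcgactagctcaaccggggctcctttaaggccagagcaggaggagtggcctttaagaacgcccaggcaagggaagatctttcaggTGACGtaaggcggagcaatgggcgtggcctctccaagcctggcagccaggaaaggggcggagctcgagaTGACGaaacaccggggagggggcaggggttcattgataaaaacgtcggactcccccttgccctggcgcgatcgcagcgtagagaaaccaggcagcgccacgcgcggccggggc

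Matches were searched on both strands, with overlaps allowed, and positions are those of the first base on the gene's strand, counted from the start site. Plk1 held TTTGAA at 31 and CCAAT at -14. Of 27025 genes with a promoter window in the RefSeq table, 20.2% held TTTGAA and 41.1% held CCAAT. Among the mitotic genes compared with Plk1 below, 18 of 28 had a window, and TTTGAA stood in 11 and CCAAT in 15 of those 18. Plk2 held the full TGACGTCA at -62, a palindrome found in 2.03% of genes, which counts as 2 of its 3 matches to TGACG, the other one starting at 22. Plk3 held TGACG at -132 and -63, and Plk4, at chr3:40799701-40800000 on the plus strand, held it once at -30. TGACG stood in the windows of 23.05% of all genes and of 12 of the 20 immediate early genes with a window. Plk5 held GGGCGG 4 times, at -233, -28, -23 and -18, where 38.2% of genes held it at least once, and CCAAT at -5. GGGCGG also stood in Plk1 at -43, in Plk2 at -230 and -47 and in Plk3 at -78, where it is not capitalized. Of the genes with a window, 15 of 18 mitotic and 18 of 20 immediate early genes held it. None of the 5 windows held the estrogen response element AGGTCANNNTGACCT, which 0.0148% of genes held, and its single arm AGGTCA stood in Plk4 at -92 and in 18.1% of genes. A match is a description of letters in a window and not a measured site.

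Total counts per library ran from 23603816 to 42575326. Levels within a gene are given as CPM, counts scaled to the depth of the library. Summed CPM of the 12 myelinating markers, among them Mbp and Mog, ran from 114382 to 161826 over the libraries, against 5665 to 9254 for the 11 precursor markers and 26.3 to 36.98 for the 12 neuronal markers. The sort also held microglial markers, whose summed CPM reached 2336 in female BPA 1, and astrocyte markers, whose sum was 6585 CPM in male BPA 2 and between 980 and 2624 CPM in the other 15 libraries. No gene of the 9 marker lists was at 0 throughout a group. Male BPA 2 therefore stood apart, and results that rest on it are given with and without it. In RNA of a sorted population, fewer cells of a type and less RNA per cell cannot be told apart.

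Plk3 was by far the most abundant family member. Between genes, levels were compared per length, on the authors' normalized counts divided by their transcript length in kb. On that scale Plk3 averaged 1906 ± 197, Plk2 158 ± 24.5, Plk1 130 ± 37.2, Plk4 53.7 ± 6.95 and Plk5 22.6 ± 9.21 normalized counts per kb (SD, n = 16). Plk3 made up 83.8% ± 3.07 of the summed level per kb of the family, between 76.7% and 87.8% in single libraries, and Plk5 made up 1.003% ± 0.416 (SD, n = 16). Plk3 stood above Plk2, and Plk4 above Plk5, in 16 of 16 libraries.
Plk2 and Plk1 were neighbours whose ranges overlapped, at 127 to 202 for Plk2 and 90.3 to 218 for Plk1, and Plk2 was above Plk1 in 12 of 16 libraries. The authors' length for Plk1 is 0.722 kb, while its longest transcript in the GENCODE annotation has 2.199 kb. With longest transcripts the order of the 5 was kept, Plk2 was above Plk1 in 16 of 16 libraries and Plk1 above Plk4 in 12 of 16. On CPM, which do not take length into account, Plk4 stood above Plk1. The coefficient of variation of Plk3 in CPM was 15.1% in BPA males and 6.87% in control males, and 13.7% in BPA females and 4.99% in control females. Without male BPA 2 it was 7.13% in BPA males, so the wider spread there rests on that library. It was the lowest of the 5 members in each control group, and the difference in spread between BPA and control was not tested.

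**Figure D1:**
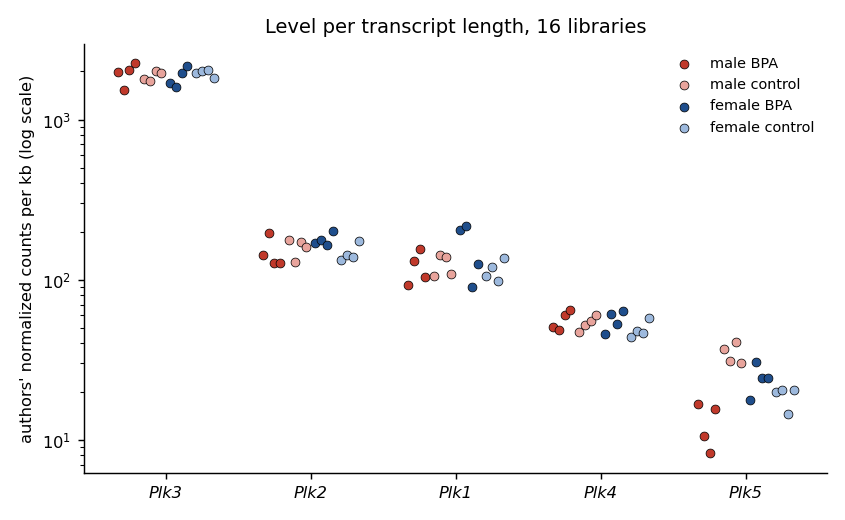
Authors' normalized counts per kb on a log axis for the 5 polo-like kinases, ordered from the highest to the lowest mean, with 1 point per library and 4 libraries per group. Plk3 lies between 1529 and 2241 in the 16 libraries and Plk5 between 8.23 and 40.7, and the points of Plk2 and Plk1 overlap.

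No test of BPA against control found a change of Plk1, Plk2, Plk3 or Plk4 in males, in females or over both sexes. In limma-voom with Benjamini-Hochberg adjustment over all genes, 0 of these 4 passed the threshold of 0.05 in any of the 3 comparisons, where 1 of 16339 genes passed in males (0.00612%), 0 in females (0%) and 3 over both sexes (0.0184%). At an unadjusted p under 0.05 stood 0 of the 4 in each comparison, against 7.96% of genes in males, 4.55% in females and 7.69% over both sexes. The groups of Plk1, Plk2, Plk3 and Plk4 overlapped in males and in females, while 4.45% of genes in males and 3.33% in females had groups that did not overlap. Over both sexes the log2 fold changes were 0.17 ± 0.19 for Plk1, 0.064 ± 0.10 for Plk2, -0.025 ± 0.076 for Plk3 and 0.10 ± 0.10 for Plk4 (SE, 8 libraries against 8), with adjusted p from 0.875 to 0.966. The effect of BPA in females minus that in males was 0.41 ± 0.37 for Plk1, 0.37 ± 0.21 for Plk2, -0.13 ± 0.15 for Plk3 and 0.11 ± 0.20 for Plk4 on the log2 scale, with an adjusted p of 0.999 for each, and 0 of 16339 genes passed there (0%). In females against males, 0 of the 4 passed among BPA mice, where 8 genes did (0.049%), with adjusted p from 0.833 to 0.995, and 0 among controls, where 9 genes did (0.0551%), with an adjusted p rounding to 1 for each.

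**Figure D2:**
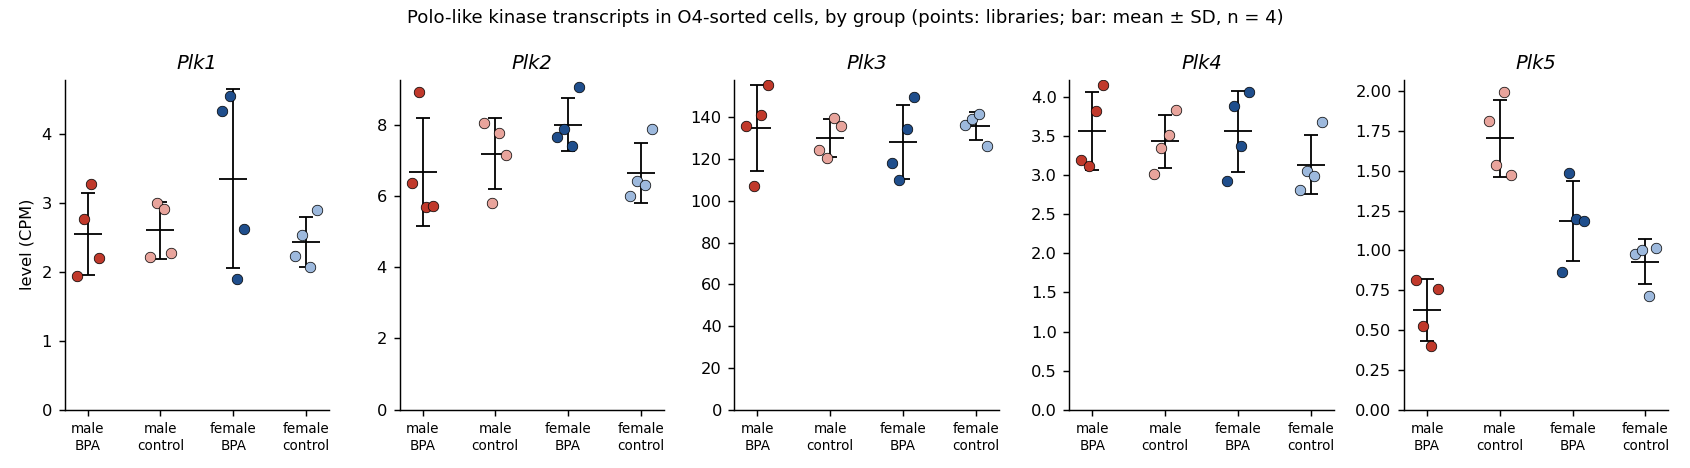
CPM of each polo-like kinase in the 4 groups, with 1 point per library and bars for the mean ± SD (n = 4), each panel on its own axis from 0. The BPA and control points of Plk1 to Plk4 overlap in both sexes, and the 4 BPA males of Plk5 lie below the 4 control males.

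Plk1, the mitotic kinase, had 1.95, 2.76, 3.28 and 2.198 CPM in BPA males, against 2.22, 2.996, 2.92 and 2.27 CPM in control males. The 2 groups overlapped, and the log2 fold change was -0.038 ± 0.27 (SE, adjusted p = 0.986, 95% confidence interval -0.62 to 0.54). In BPA females Plk1 had 4.34, 4.56, 1.90 and 2.63 CPM, against 2.23, 2.53, 2.08 and 2.90 CPM in control females. Female BPA 1 and 2 were above the 4 control females and female BPA 3 was below them, and the log2 fold change was 0.37 ± 0.26 (SE, adjusted p = 0.999, interval -0.18 to 0.92). It was 0.67 ± 0.22 without female BPA 3 (adjusted p = 0.868), 0.21 ± 0.26 without female BPA 1 and 0.20 ± 0.26 without female BPA 2. Precursor markers were also highest in female BPA 2, at a summed 9254 CPM. Abundant genes of the list lead such sums, as Gpr17 averaged 2666 CPM and Pdgfra 139 CPM over the 16 libraries. The part of precursor content in the level of Plk1 was not tested beyond the correlation given next.

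Plk1 followed the mitotic genes from library to library. The list holds 28 genes that act with it, such as Aurka and Bora, which activate Plk1, Ccnb1 and Cdk1 of the mitotic kinase complex, Bub1 and Ttk of the spindle checkpoint and Prc1 and Kif23 of the central spindle. After the group means were taken out, log2 CPM of Plk1 and the mean log2 CPM of the list had a Pearson r of 0.90 (p = 0.00111) and a Spearman rho of 0.88 (p = 0.00435) over 16 libraries, by two-sided permutation within groups. Adjusted over the 9 planned pairs, these p-values were 0.00999 and 0.0391. Female BPA 2 had the highest and female BPA 3 the lowest list mean relative to their group, and r was 0.84 without these 2. Points share a library and its depth. The correlation of Plk1 with the precursor markers was 0.49 (adjusted p = 0.520), and 0.24 without female BPA 2 and 4. The genes whose log2 CPM was most like that of Plk1 over the 16 libraries were Prc1 (r = 0.89), Racgap1 (0.88), Tpx2 (0.88), Cenpf (0.88) and Nuf2 (0.88), of which Prc1 and Tpx2 are on the list, and these are given as a description.

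The 28 mitotic genes did not pass the test in any BPA comparison (0 of 28). Their log2 fold changes were above 0 for 6 of 28 in males, where 52.5% of all genes tested were, with a median of -0.077 beside 0.0088 for all genes. In females they were above 0 for 21 of 28, where 50.6% of all genes were, with a median of 0.16 beside 0.0019. Without female BPA 2, the library with the highest precursor sum, 18 of 28 were above 0 in females and the median was 0.050, and without male BPA 1, 13 of 28 were above 0 in males and the median was -0.0045. The smallest p in females belonged to Cdc25c, the phosphatase that opens mitotic entry, at 1.57 ± 0.349 CPM in BPA and 1.12 ± 0.205 CPM in control females (SD, n = 4 each; log2 fold change 0.49 ± 0.22, adjusted p = 0.999). Birc5, the survivin subunit of the chromosomal passenger complex, was next, at 3.10 ± 0.730 CPM in BPA and 2.22 ± 0.389 CPM in control females (log2 fold change 0.46 ± 0.21, adjusted p = 0.999). In males the smallest p belonged to Fzr1, the activator of the anaphase-promoting complex after mitosis, at 39.5 ± 0.734 CPM in BPA and 36.5 ± 1.77 CPM in control males (log2 fold change 0.11 ± 0.046, adjusted p = 0.552).

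Plk4, the centriole kinase, had 3.20, 3.11, 3.82 and 4.15 CPM in BPA males, against 3.02, 3.35, 3.52 and 3.84 CPM in control males. The groups overlapped, with a log2 fold change of 0.048 ± 0.14 (SE, adjusted p = 0.960, interval -0.26 to 0.36). In females it had 2.92, 3.89, 3.37 and 4.07 CPM in BPA, against 2.81, 3.06, 2.99 and 3.68 CPM in controls. Female BPA 2 and 4 were above the 4 control females and the other two lay among them, with a log2 fold change of 0.16 ± 0.14 (SE, adjusted p = 0.999, interval -0.14 to 0.46). No correlation of Plk4 with Plk1 or its list passed the test: with group means taken out, r was 0.084 between them (adjusted p = 0.838) and -0.067 between Plk4 and the mitotic list (adjusted p = 0.838). With the mean of 20 centriole genes, such as Sass6, which forms the cartwheel, Cep152, which recruits Plk4, and Btrc and Fbxw11, which target it for degradation, r was 0.32 (adjusted p = 0.520), and -0.044 without male BPA 4 and male control 1. The gene most like Plk4 was Kcnu1, a potassium channel subunit (r = 0.88 over 16 libraries).

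The centriole genes did not pass the test in any BPA comparison (0 of 20). Log2 fold changes were above 0 for 12 of 20 in males (median 0.0095), where 52.5% of all genes were. Without male BPA 4 these were 9 of 20 and -0.028. In females they were above 0 for 8 of 20 (median -0.031), where 50.6% of all genes were. Btrc, the F-box protein that binds phosphorylated Plk4, had the smallest p in males, at 25.7 ± 2.88 CPM in BPA and 19.2 ± 1.92 CPM in control males (SD, n = 4 each; log2 fold change 0.43 ± 0.13, adjusted p = 0.444). In females Btrc averaged 21.01 ± 5.10 CPM in BPA and 21.5 ± 1.99 CPM in controls. Cenpj, which elongates centrioles, averaged 11.4 ± 0.675 CPM in BPA and 9.53 ± 1.19 CPM in control males (log2 fold change 0.27 ± 0.11, adjusted p = 0.539). Cdk5rap2, a pericentriolar scaffold, had the smallest p over both sexes, at 37.6 ± 4.84 CPM in BPA and 32.5 ± 3.08 CPM in control mice (SD, n = 8 each; log2 fold change 0.22 ± 0.077, adjusted p = 0.492).

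Plk2, the inducible kinase of synaptic remodelling, had 6.36, 8.91, 5.70 and 5.73 CPM in BPA males, against 8.04, 5.79, 7.77 and 7.14 CPM in control males. Male BPA 2 was above the control males and male BPA 3 and 4 were below them. The log2 fold change was -0.12 ± 0.15 (SE, adjusted p = 0.898, interval -0.44 to 0.20), and -0.28 ± 0.13 without male BPA 2 (adjusted p = 0.451). In females Plk2 had 7.66, 7.87, 7.39 and 9.07 CPM in BPA, against 5.99, 6.43, 6.30 and 7.87 CPM in controls. The 4 BPA females were above 3 of the control females and overlapped the fourth, with a log2 fold change of 0.25 ± 0.14 (SE, adjusted p = 0.999, interval -0.057 to 0.55). In BPA mice, females minus males differed by 0.25 ± 0.15 in log2 (adjusted p = 0.833), and by 0.41 ± 0.13 without male BPA 2 (adjusted p = 0.216).

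Plk3, the stress-responsive kinase that dominates the family in these cells, had 136, 107, 141 and 155 CPM in BPA males, against 124, 121, 139 and 136 CPM in control males. Male BPA 2 was the lowest of the 16 libraries and male BPA 4 the highest. The log2 fold change was 0.042 ± 0.11 (SE, adjusted p = 0.955, interval -0.19 to 0.27), and 0.15 ± 0.092 without male BPA 2 (adjusted p = 0.568). In females Plk3 had 118, 110, 135 and 150 CPM in BPA, against 136, 139, 142 and 126 CPM in controls. The BPA females spread on both sides of the controls, with a log2 fold change of -0.091 ± 0.11 (SE, adjusted p = 0.999, interval -0.32 to 0.14), an interval of 0.800-fold to 1.10-fold.

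From library to library, Plk3 went with the myelinating markers, and no correlation of Plk2 or Plk3 with the immediate early genes passed the test. With group means taken out, Plk3 and the mean of 24 immediate early genes, such as Fos, Egr1 and Arc, had r = -0.42 over 16 libraries (adjusted p = 0.520), and r = 0.019 without female BPA 1 and male BPA 2. Plk2 and the same list had r = 0.14 (adjusted p = 0.831), and -0.31 without these 2 libraries, and Plk2 and Plk3 had r = -0.37 (adjusted p = 0.520), and 0.15 without female BPA 2 and male BPA 2. In a second family of 15 pairs, chosen after the data were seen, Plk3 and the mean of the 12 myelinating markers had r = 0.87 (p = 0.0039) and rho = 0.85 (p = 0.00212) by the same permutation test. Adjusted over the 15 pairs, these p-values were 0.0585 and 0.0318, so the rank correlation passed the threshold and Pearson's did not. The adjustment does not cover the choice of this pair after the data were seen, so the relation is given as a description. Without male BPA 2 and 3, r was 0.83. Plk2 and the astrocyte markers had r = 0.57 (adjusted p = 0.723), and -0.054 without male BPA 2 and 4, so that relation rests on these libraries. Among the genes most like Plk3 were Ankrd13b (r = 0.93), Prox1 (0.93), a transcription factor of the oligodendrocyte lineage, Igsf8 (0.90) and Pip4p1 (0.90). Those most like Plk2 were Bcl6b (r = 0.88), a repressor of transcription, and Tiam1 (0.83), an activator of the small GTPase Rac1.

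**Figure D3:**
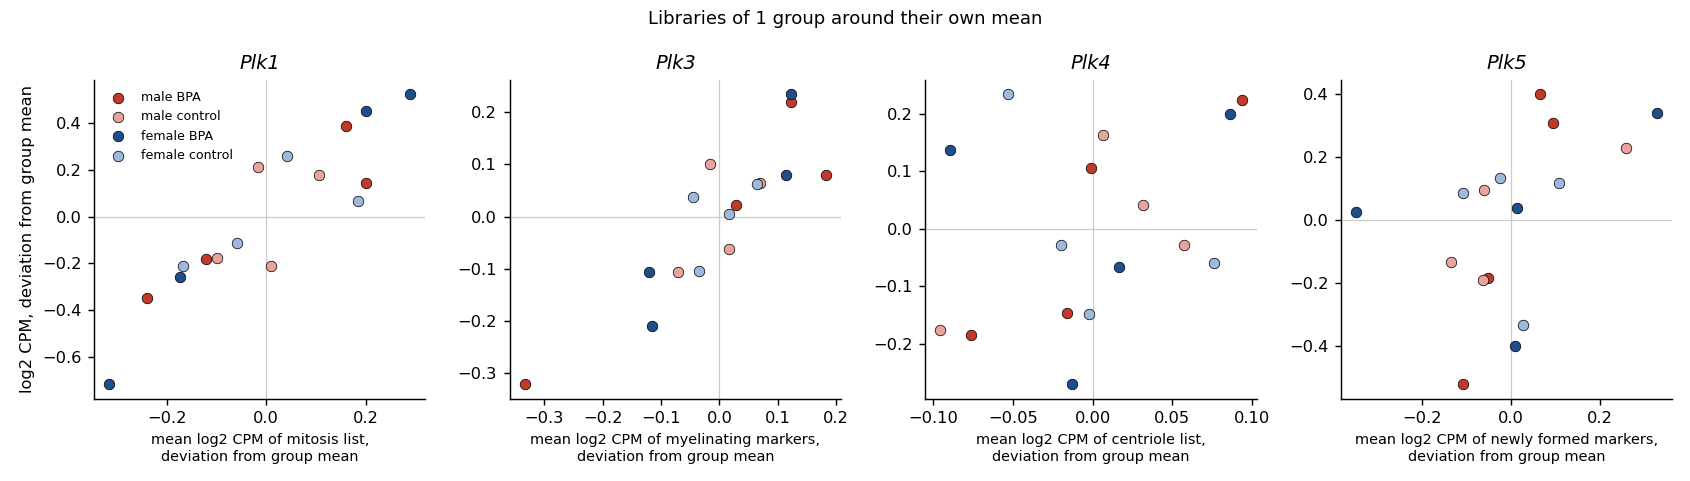
Each panel plots the log2 CPM of 1 member against the mean log2 CPM of 1 gene list, both as deviations from the mean of the library's own group, with 16 points coloured by group. The points rise together for Plk1 with the mitotic list (r = 0.90) and for Plk3 with the myelinating markers (r = 0.87), and scatter more for Plk4 with the centriole list (r = 0.32) and Plk5 with the newly formed markers (r = 0.46).

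The immediate early genes did not pass the test in any BPA comparison (0 of 24). Their log2 fold changes were above 0 for 18 of 24 in males (median 0.091), where 52.5% of all genes were. In females they were above 0 for 22 of 24 (median 0.39), where 50.6% of all genes were. The direction in males rests on male BPA 2, the library with the high astrocyte sum: without it 6 of 24 were above 0 in males, with a median of -0.14. In females the median was 0.18 without female BPA 1, the library with the highest microglial sum, with 22 of 24 above 0. The list also differed between the sexes without BPA: in control females against control males, 24 of 24 were above 0 (median 0.34). Fosl2, a subunit of the AP-1 transcription factor, had the smallest p over both sexes, at 5.85 ± 1.83 CPM in BPA and 4.29 ± 0.712 CPM in control mice (SD, n = 8 each; log2 fold change 0.39 ± 0.17, adjusted p = 0.587). Egr2, a transcription factor needed for myelination in peripheral nerve, averaged 7.15 ± 4.20 CPM in BPA and 3.68 ± 1.23 CPM in control females (SD, n = 4 each; log2 fold change 0.85 ± 0.37, adjusted p = 0.999). Klf4, a zinc finger factor, averaged 29.2 ± 6.33 CPM in BPA and 19.6 ± 2.99 CPM in control females (log2 fold change 0.55 ± 0.24, adjusted p = 0.999). The 10 genes for synaptic substrates and partners of Plk2 did not pass either (0 of 10), with medians of -0.061 in males and 0.041 in females. Among them, Rap2a, a small GTPase, averaged 523 ± 45.7 CPM in BPA and 608 ± 46.5 CPM in control mice (SD, n = 8 each; log2 fold change -0.22 ± 0.063, adjusted p = 0.334), and Dlg4, the postsynaptic scaffold PSD-95, 96.5 ± 6.29 CPM in BPA and 87.5 ± 2.34 CPM in control mice (log2 fold change 0.14 ± 0.037, adjusted p = 0.285).

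Plk5, the atypical member, had 0.814, 0.523, 0.402 and 0.760 CPM in BPA males, against 1.81, 1.54, 1.99 and 1.48 CPM in control males. The highest BPA male was lower than the lowest control male. In females Plk5 had 0.867, 1.49, 1.198 and 1.19 CPM in BPA, against 0.981, 1.002, 0.717 and 1.01 CPM in controls. Female BPA 2, 3 and 4 were above the 4 control females and female BPA 1 lay among them. Of the 4 groups, control males were thus the highest and BPA males the lowest, at 0.625 ± 0.195 CPM in BPA and 1.70 ± 0.241 CPM in control males, and 1.19 ± 0.254 CPM in BPA and 0.928 ± 0.142 CPM in control females (SD, n = 4 each). The order from the top was control males, BPA females, control females and BPA males, and neighbours in this order overlapped. Female BPA 2, at 1.49 CPM, was above male control 4, at 1.48 CPM, the BPA females overlapped the control females, and BPA males, at 0.402 to 0.814 CPM, overlapped control females, at 0.717 to 1.01 CPM.

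The fitted log2 fold change of Plk5 for BPA against control was -1.47 ± 0.24 in males (0.362-fold), 0.34 ± 0.22 in females (1.26-fold) and -0.56 ± 0.16 over both sexes, and females minus males came to 1.80 ± 0.33 (SE). It was -1.38 ± 0.26 in males without male BPA 2, and between -1.60 and -1.30 when any 1 library of the 8 was left out. Females against males gave 0.93 ± 0.25 in BPA mice (1.90-fold), with the 4 BPA females above the 4 BPA males, and -0.88 ± 0.21 in controls (0.544-fold), with the 4 control females below the 4 control males. Groups without overlap were found for 4.45% of genes in the BPA comparison of males, 2.54% in that of females against males under BPA and 2.14% among controls, and since Plk5 was picked on these values nothing is read from its place among them. These comparisons share groups with each other, the control males standing in both the exposure and the sex comparison.

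Plk5 was the rarest member, and counting error was a large part of its spread. It had 28, 21, 12 and 28 counts in BPA males, against 66, 39, 60 and 50 counts in control males, and 30, 49, 48 and 28 counts in BPA females, against 37, 38, 29 and 43 counts in control females. Summed over a group, these gave 0.630 CPM in BPA males (exact Poisson 95% interval 0.506 to 0.775) and 1.71 CPM in control males (1.49 to 1.95). In females they gave 1.18 CPM in BPA (1.003 to 1.38) and 0.927 CPM in controls (0.783 to 1.09), and such intervals cover counting error only. The coefficient of variation between libraries was 31.2% in BPA males, 14.2% in control males, 21.4% in BPA females and 15.3% in control females, where counting alone gives 21.2%, 13.6%, 16.1% and 16.5%. For Plk3, whose counts are far higher, counting gives from 1.36% to 1.56%.

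**Figure D4:**
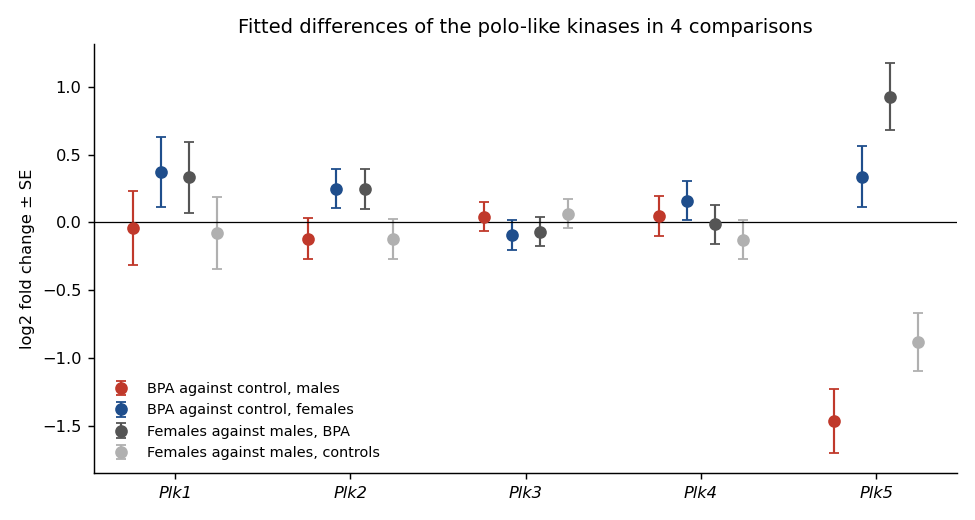
Log2 fold changes with their SE for the 5 members, for BPA against control in males and in females and for females against males in BPA and in control mice. Values of Plk1 to Plk4 lie between -0.13 and 0.37, and Plk5 spans -1.47 to 0.93.

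Values of cell type markers in the same comparisons are set beside those of Plk5 here, and none of these marker genes passed the test between BPA and control. Of all genes tested, 52.5% had a log2 fold change above 0 for BPA against control in males and 50.6% in females. In males, 0 of 11 precursor markers had a log2 fold change above 0 (median -0.28), and their summed level was 5665 to 6464 CPM in BPA and 6756 to 7954 CPM in control males. Of the 10 markers of newly formed oligodendrocytes 1 was above 0 (median -0.29), with sums of 5599 to 7105 CPM in BPA and 6926 to 8639 CPM in control males. Bcas1, a marker of early myelinating cells, averaged 917 ± 95.5 CPM in BPA and 1122 ± 70.4 CPM in control males (SD, n = 4 each; log2 fold change -0.29 ± 0.082, adjusted p = 0.384). For microglial markers the log2 fold change was above 0 in 10 of 10 (median 0.41), with sums of 664 to 1322 CPM in BPA and 538 to 1516 CPM in control males. Mural and fibroblast markers were above 0 in 7 of 8 (median 0.73), with sums of 39.6 to 119 CPM in BPA and 25.1 to 46.2 CPM in control males, and in 5 of 8 (median 0.44) without male BPA 2, which had the sum of 119. Ependymal and choroid plexus markers were above 0 in 7 of 9 (median 0.59), with sums of 226 to 544 CPM in BPA and 122 to 333 CPM in control males, and in 7 of 9 (median 0.34) without male BPA 2. Astrocyte markers were above 0 in 10 of 10 (median 0.12) with male BPA 2 and in 0 of 10 (median -0.44) without it, and endothelial markers in 4 of 8 with it and 0 of 8 without it. In females, 10 of 11 precursor markers were above 0 (median 0.16), with sums of 5670 to 9254 CPM in BPA and 6085 to 7080 CPM in controls, and 4 of 10 newly formed markers (median -0.020). Without female BPA 2, which had the sum of 9254, 5 of 11 precursor markers were above 0 (median -0.0055) and 1 of 10 newly formed markers (median -0.12), so the direction of the precursor markers in females rests on that library. In females against males, 10 of 11 precursor markers were above 0 among BPA mice (median 0.25, and 48.5% of all genes above 0) and 0 of 11 among controls (median -0.15, and 50.4% of all genes). Without female BPA 2, the precursor median among BPA mice was 0.049, with 9 of 11 above 0. Newly formed markers were there above 0 in 9 of 10 among BPA mice (median 0.26) and 5 of 10 among controls (median -0.0066). For BPA against control, 10 of 12 myelinating markers were above 0 in males (median 0.058, with male BPA 2 included) and 3 of 12 in females (median -0.055). Their sum was 114382 CPM in male BPA 2 and 150829 to 161826 CPM in the other BPA males, against 133660 to 150907 CPM in control males. The other medians in females were 0.046 for microglial, 0.22 for ependymal and choroid plexus, 0.0051 for mural and fibroblast, 0.059 for astrocyte and -0.0023 for endothelial markers. In females against males, 1 of 12 myelinating markers were above 0 among BPA mice (median -0.13) and 7 of 12 among controls (median 0.012). Among controls, microglial markers were there above 0 in 10 of 10 (median 0.62) and ependymal and choroid plexus markers in 6 of 9 (median 0.59). Mural and fibroblast markers were above 0 in 6 of 8 (median 0.49), astrocyte markers in 9 of 10 (median 0.11) and endothelial markers in 8 of 8 (median 0.13). Among BPA mice the medians of these lists, in the same order, were 0.29, 0.16, -0.16, 0.011 and 0.038.

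**Figure D5:**
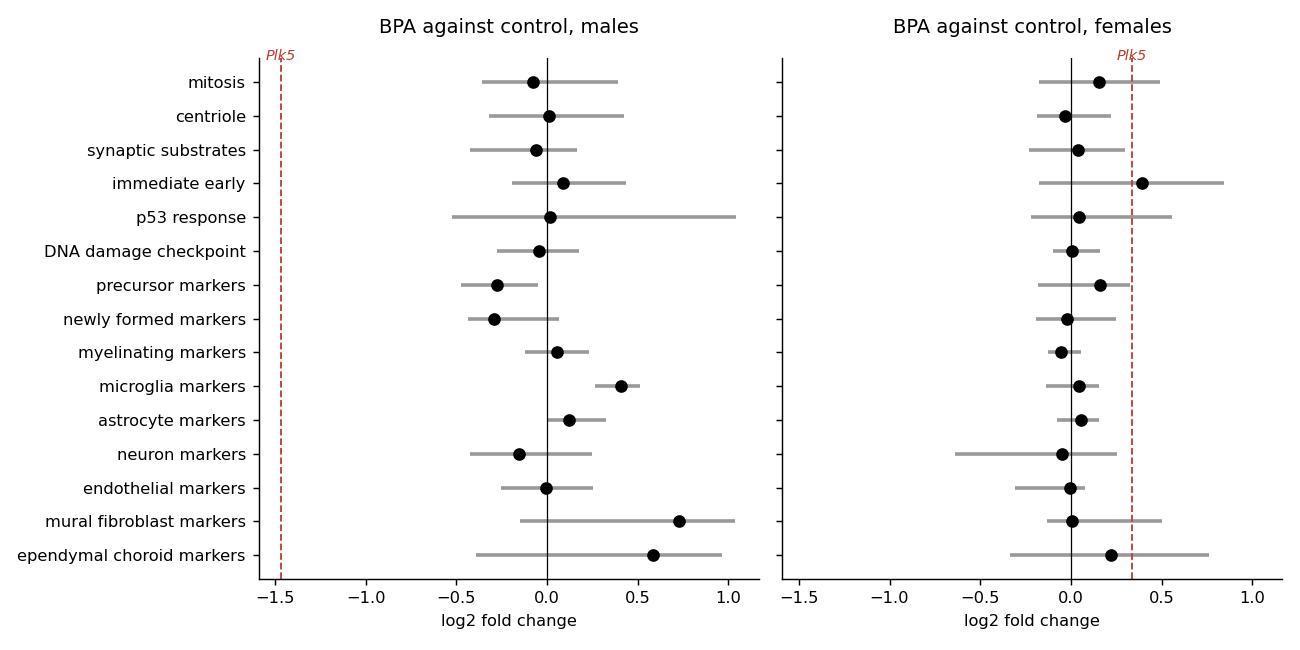
Median (point) and range (line) of the log2 fold changes of the tested genes of each of the 15 lists, for BPA against control in males on the left and in females on the right, with the value of Plk5 as a dashed line. In males the precursor and newly formed medians lie at -0.28 and -0.29. Plk5 lies at -1.47, and since it was picked on these values nothing is read from its place beside the lists.

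Within groups, Plk5 had r = 0.24 with the precursor markers (adjusted p = 0.914) and r = 0.46 with the newly formed markers (p = 0.0898, adjusted p = 0.674; rho = 0.59, p = 0.0283, adjusted p = 0.212) over 16 libraries, among the 15 pairs chosen after the data were seen, by permutation. With the microglial markers r was -0.29 (adjusted p = 0.914) and with the astrocyte markers -0.032 (adjusted p = 0.993). Plk5 had r = -0.25 with Plk1, 0.11 with Plk2, 0.11 with Plk3 and 0.22 with Plk4, with adjusted p from 0.914 to 0.993. The part of precursor and newly formed cells in the group values of Plk5 was not tested beyond these values.

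The genes whose level was most like that of Plk5 over the 16 libraries, group differences included, were Asphd2 (r = 0.82), Matn1 (0.81), Rnf150 (0.81), Col9a3 (0.80) and Satb1 (0.79). They were chosen for this likeness, and their group means are given as a description. Matn1, which encodes the matrix protein matrilin 1, averaged 2.07 CPM in BPA and 3.96 CPM in control males, and 2.93 CPM in BPA and 2.63 CPM in control females. Col9a3, a chain of type IX collagen, averaged 484 CPM in BPA and 679 CPM in control males, and 589 CPM in BPA and 607 CPM in control females. On chromosome 10 the neighbours of Plk5 in the RefSeq order that were tested are Adamtsl5, which encodes a secreted matrix protein, and Mex3d, which encodes an RNA-binding protein. Adamtsl5 averaged 0.689 ± 0.345 CPM in BPA and 0.517 ± 0.151 CPM in control males (SD, n = 4 each; log2 fold change 0.39 ± 0.35, adjusted p = 0.843), and Mex3d 58.3 ± 6.93 CPM in BPA and 62.1 ± 1.51 CPM in control males (log2 fold change -0.10 ± 0.072, adjusted p = 0.796).

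By their annotated transcripts, the 5 genes share little sequence with others. Of the 50-base words in annotated transcripts of Plk1, 6.56% also occur in the pseudogene Plk-ps1, and of those of Plk4 3.18% occur in transcripts of other genes, while Plk2, Plk3 and Plk5 share 0%. The 3′ end of Plk3 overlaps Tctex1d4 on the other strand, which averaged from 0.0760 CPM in control males to 0.174 CPM in control females. The libraries were stranded, and the strand setting of the authors' counting is not given in the sources used here.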

How the data were processed

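Gene counts came from RNA of O4-sorted cells of 16 mice. Per the labels' protocols, poly(A) RNA was made into stranded libraries. The submitters' processing notes name HTSeq 0.6.1p1, STAR 2.5.3a, DESeq2 1.16.1, bcl2fastq 2.20.0.422 and the build mm39. The authors deposited whole-number counts per gene, a normalized version (found here to equal counts over median-of-ratios factors), and the normalized values divided by the median transcript length in kb. The layout of the table kept its units from an automated check, so no count model was fitted and limma-voom replaced the quasi-likelihood count test first planned.

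Genes were kept that reached, in at least 4 libraries, the CPM of 10 counts at the median library size, and 15 counts in total (16339 genes, 99.947% of counts). Libraries were scaled by TMM, re-implemented in R 4.3.3. limma 3.58.1 fitted 1 coefficient per group to the 16 libraries (voom, robust empirical Bayes), with Benjamini-Hochberg adjustment over all genes, a threshold of 0.05 and two-sided tests. Correlations used log2 CPM (prior count 2) and 100000 permutations within groups in Python 3.11.15. The fit was tested on simulated counts. Totals of 23603816 to 42575326 counts put the level that a count of 0 allows at 3 counts, and precision is limited by counting for Plk5.

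The members and the 15 gene lists were chosen with earlier results of these data known. The genes named from a list are among the 4 with the smallest p in a comparison, out of its genes of at least 1 CPM, and genes that illustrate a list's role, such as Cdkn1a, are named outside this rule. Results for a few further genes are not reported here. Symbols come from GENCODE release M21 and promoter windows from RefSeq. Alternatives were another scaling, other filters, another limma test, replicate blocks, fits on single contrasts and leaving out each library, which for the lists was added after seeing the data. No samples were left out.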

Additional observations from a re-analysis of the deposited data

Results flagged for a closer look

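In 1 of 20 combinations of member and group, the lowest or highest of the 4 libraries lay far from the other ones, and chance alone would flag about 1 in 20. Female control 3 had 0.717 CPM of Plk5, from 29 counts, and the other control females had 0.981, 1.002 and 1.01 CPM. Without this library the log2 fold change of Plk5 for BPA against control in females was 0.23 ± 0.23 (SE), against 0.34 ± 0.22 with it, and that for females against males among controls was -0.76 ± 0.22.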

How the results depend on the processing

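The log2 fold changes of Plk1 to Plk4 stayed above the adjusted p of 0.05 under each alternative run. Those of Plk5 kept their direction in the 6 comparisons, and since Plk5 was picked on these values nothing is read from that. In females, BPA against control gave Plk5 values from 0.23 to 0.48 when 1 library was left out. The number of genes passing over the whole table, which is 1 in males, 0 in females and 3 over both sexes, was small and moved. Without a filter on low counts it was 2 in males and 2 in females; on the groups of the contrast alone 4 in males, 1 in females and 3 for females against males under BPA (8 in the full fit); with limma-trend, added after seeing the data, 3 in males; with the stricter filter 0 over both sexes. Replicate numbers are shared between groups. In 24 same-numbered pairs the deviations correlated between -0.24 and 0.23 (median 0.024), with 7 above 0.1. In 72 pairs with different numbers they correlated between -0.40 and 0.42 (median -0.015), with 16 above 0.1. The ranges overlapped, and whether a number marks a shared litter or batch was not tested. With a replicate block 0 genes passed over both sexes, and the difference of Plk4 between females and males under BPA was 0.00072 instead of -0.015.

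Leaving out 1 library at a time, the number passing was 0 in males for each of the 8, between 0 and 5 over both sexes, between 0 and 3 for the difference of effects, between 4 and 9 for females against males in controls and between 3 and 21 under BPA, the 21 without male BPA 2. Small log2 fold changes crossed 0: in males Plk1 ran from -0.15 to 0.078, Plk3 from -0.019 to 0.15 and Plk4 from -0.023 to 0.12; over both sexes Plk2 from -0.018 to 0.11 and Plk3 from -0.060 to 0.028; and for females against males under BPA Plk3 from -0.18 to 0.0062 and Plk4 from -0.084 to 0.076. Correlations ran from -0.22 to 0.12 for Plk4 with the mitotic list, -0.039 to 0.36 for Plk1 with Plk4, -0.32 to 0.44 for Plk2 with the immediate early genes, -0.61 to 0.14 for Plk2 with Plk3 and -0.44 to 0.024 for Plk2 with the microglial markers. Plk1 with the mitotic list kept r between 0.86 and 0.93. Among the 5 members Plk1 is in place 4 and Plk4 in place 3 on CPM. The cause of these shifts was not tested. The planned fits with count models, DESeq2 and a quasi-likelihood test, were not run.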

Other observations

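Plk3 is known to act in the p53 and DNA damage responses, and neither list passed the test in a BPA comparison (0 of 18 and 0 of 11). Log2 fold changes of the 18 p53 response genes had a median of 0.017 in males and 0.043 in females, beside 0.0088 and 0.0019 for all genes. The smallest p over both sexes belonged to Gadd45a, a growth arrest gene, at 18.7 ± 2.71 CPM in BPA and 23.7 ± 1.53 CPM in control mice (SD, n = 8 each; log2 fold change -0.35 ± 0.075, adjusted p = 0.203 in limma-voom). Sesn2, a stress-inducible inhibitor of mTORC1 signalling, averaged 12.97 ± 1.88 CPM in BPA and 10.4 ± 0.573 CPM in control mice (log2 fold change 0.32 ± 0.082, adjusted p = 0.265). Cdkn1a, the p53 target that encodes the inhibitor p21, averaged 21.6 ± 13.6 CPM in BPA and 22.6 ± 9.48 CPM in control males. In the checkpoint list, Chek2 averaged 2.96 ± 0.395 CPM in BPA and 2.69 ± 0.374 CPM in control mice (log2 fold change 0.14 ± 0.11, adjusted p = 0.831).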
